A study of Homo sapiens with 4 samples.

Results

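The replication-dependent histone genes make the bulk of the H1, H2A, H2B, H3 and H4 proteins that package newly copied DNA. The members were the protein-coding genes with GENCODE 29 symbols beginning HIST1H, HIST2H or HIST3H and a value above 0 in at least 1 library. There were 58 of them among 32479 genes in the table. They comprised 4 genes for the linker histone H1, 13 for H2A, 18 for H2B, 11 for H3 and 12 for H4. GENCODE 29 has 70 protein-coding genes with these symbols, and the other 12 have no row in the table and were not analysed here. The newer gene symbols matched 55 genes of the table. One non-member, HIST4H4, was among them, and 4 members (HIST1H3B, HIST1H3C, HIST3H3 and HIST2H2AA3) were missed by the table of newer symbols.

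The samples are 4 cultures of 2 human liver cancer lines, both labelled wild type, with RNA-seq of total RNA. HepG2 is a hepatoblastoma-derived line, and PLC/PRF/5 is a hepatoma line with hepatitis B virus DNA integrated in its genome. For each line, one culture was left untreated and sampled at 24 h, and another received 20 uM PF-429242 for 24 h. PF-429242 inhibits MBTPS1 (site-1 protease), which cuts the membrane-bound precursors of SREBP and ATF6 in the Golgi. Each of the 4 groups is 1 library, so a difference between libraries has no replicate check, and no p-value is given for any comparison of a pair of libraries. The study compared expression with and without the inhibitor in these lines. Values are FPKM, fragments scaled to gene length and to all fragments counted in the library, from which whole fragment counts were recovered for 57 of the 58 members.

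Histone messages of this kind differ from other mRNAs. Most have no introns and no poly(A) tail: their 3' end is cut just after a short stem-loop, which is bound by SLBP, and the U7 snRNP with its partners LSM10, LSM11 and ZNF473 directs the cut. Transcription depends on NPAT, a substrate of the S-phase kinase CDK2, and the messages are made in S phase and degraded when DNA synthesis stops. Some of the genes also give a longer, polyadenylated transcript when cells leave the cycle. Replication-independent histones such as H3.3 (H3F3A, H3F3B), H2A.Z (H2AFZ) and H1.0 (H1F0) are made throughout the cycle from ordinary polyadenylated messages.

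The stem-loop is shown because it decides which end a histone transcript has, and because the transcript models used to measure these genes include it unevenly. The histone stem-loop, a 16-base core, was searched in all 206694 GENCODE 29 transcripts and was found in 72 of them (0.0348%). The matches fell in 44 genes, of which 28 were members and 16 were not. The sequences below are DNA-sense, 5′ to 3′, from GENCODE 29 (GRCh38), with the core in capitals and 5 flanking bases on each side.
HIST1H2AC: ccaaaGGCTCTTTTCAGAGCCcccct
HIST2H2BE: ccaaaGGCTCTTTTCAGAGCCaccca
HIST1H3H: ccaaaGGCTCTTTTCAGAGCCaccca
HIST1H2BC: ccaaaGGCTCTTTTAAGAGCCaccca
HIST1H2BD: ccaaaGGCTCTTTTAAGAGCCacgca
HIST1H4E: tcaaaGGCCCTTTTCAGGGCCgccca
HIST1H4J: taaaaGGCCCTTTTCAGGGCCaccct
HIST1H4I: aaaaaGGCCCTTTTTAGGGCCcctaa
HIST1H3E: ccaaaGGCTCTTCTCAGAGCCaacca
HIST1H2AG: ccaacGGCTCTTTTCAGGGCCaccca
The core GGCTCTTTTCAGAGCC was in 14 members of the H2A, H2B and H3 classes, and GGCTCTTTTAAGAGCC in 5 members of the H2B and H3 classes. All 7 H4 members with a match had a GGCCC stem, closing on the loop TTTC in 4 of them and TTTT in 3. HIST1H3E and HIST1H2AG each had a core that no other member shared.

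The models differ in how much of the message they hold. Of the 58 members, 25 have a model made of the coding part only, with no stem-loop. In 8 the longest transcript with a stem-loop ends within 100 bases of it, as a processed histone mRNA does. One of the 8, HIST1H2BD, also has a second transcript model, and its 2 exon blocks together cover 871 bases, against 496 for the stem-loop transcript. In 20 the longest such transcript runs more than 100 bases past the stem-loop, as a polyadenylated transcript does, by 1729 bases in HIST2H2BE, 1761 in HIST1H2AG and 1862 in HIST1H3E. The remaining 5 (HIST1H2BA, HIST1H4C, HIST1H1E, HIST1H2BJ and HIST1H3J) hold untranslated bases without a match.

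Promoters of 3 members are shown because HIST1H1C and HIST1H2BK had the highest mean levels, and because HIST1H2BK and its neighbour HIST1H4I set the lines apart. They are RefSeq sequences of GRCh38.p14 from 250 bases before to 50 after the annotated start, read 5′ to 3′ on the gene's strand. HIST1H1C is at chr6:26056421-26056720 on the minus strand, HIST1H4I at chr6:27139032-27139331 on the plus strand and HIST1H2BK at chr6:27146809-27147108 on the minus strand. Capitals mark matches, on either strand, to TATAAA, the CCAAT box, the octamer ATTTGCAT or the H1 box AAACACA, and TATAAA can overlap its own reverse match.
HIST1H1C: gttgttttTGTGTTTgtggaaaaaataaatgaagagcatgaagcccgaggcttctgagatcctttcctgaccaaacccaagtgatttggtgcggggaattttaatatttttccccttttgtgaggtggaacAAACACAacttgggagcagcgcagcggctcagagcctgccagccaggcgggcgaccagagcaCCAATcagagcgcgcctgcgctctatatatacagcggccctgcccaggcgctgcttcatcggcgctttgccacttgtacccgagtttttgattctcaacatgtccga
HIST1H4I: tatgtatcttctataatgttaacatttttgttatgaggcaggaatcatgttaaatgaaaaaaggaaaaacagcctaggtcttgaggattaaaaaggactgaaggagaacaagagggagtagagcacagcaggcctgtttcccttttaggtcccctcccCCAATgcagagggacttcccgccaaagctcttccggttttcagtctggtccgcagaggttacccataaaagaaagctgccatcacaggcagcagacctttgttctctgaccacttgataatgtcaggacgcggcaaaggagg
HIST1H2BK: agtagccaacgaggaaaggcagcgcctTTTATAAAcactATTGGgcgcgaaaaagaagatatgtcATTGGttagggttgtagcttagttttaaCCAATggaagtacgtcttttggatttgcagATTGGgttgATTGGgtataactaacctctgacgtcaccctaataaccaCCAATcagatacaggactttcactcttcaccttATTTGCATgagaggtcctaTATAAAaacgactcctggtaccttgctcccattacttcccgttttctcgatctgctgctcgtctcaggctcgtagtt
RefSeq promoters were matched for 52 members. The octamer ATTTGCAT was in 22 of the 52 (42.3%) and in 1.77% of all 35116 promoters of that length. It was in 9 of 12 H2A and 13 of 17 H2B promoters, and in none of the H1, H3 or H4 promoters searched. CCAAT was in 44 (84.6%, against 34.6% of all promoters), including every H1, H2A, H2B and H3 promoter searched but only 2 of 10 for H4. TATAAA was in 36 (69.2%, against 11.5%). AAACACA was in 5 (9.62%, against 5.64%), namely all 4 H1 promoters and that of HIST2H2AC. A match describes these letters in this window and is not evidence of a bound factor.

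The 4 libraries held 16722204 (HepG2 control), 20350701 (treated HepG2), 21387301 (PLC/PRF/5 control) and 16982560 (treated PLC/PRF/5) counted fragments. Mitochondrial genes took 16.6%, 27.6%, 21.3% and 28.2% of these in the same order, a larger share after treatment in both lines. For a gene of 400 bases, about the size of many histone models, 1 fragment is worth 0.150, 0.123, 0.117 and 0.147 FPKM. Liver identity was visible in each library: ALB, the albumin gene, was at 2586, 2421, 624 and 1148 FPKM, while the fibroblast gene COL1A1 stayed at or below 0.190 FPKM. The labels do not say whether RNA was selected by its poly(A) tail or whether strand was kept.

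Histone genes of this kind were low in all 4 libraries. The 57 members with known fragments together held 509 fragments in HepG2 without and 483 with the inhibitor. In PLC/PRF/5 they held 540 without and 493 with it. That is between 23.7 (treated HepG2) and 30.4 (HepG2 control) fragments per 1000000 counted. Values above 0 were found for 37, 37, 49 and 45 of the 58 members, and 30 members were above 0 in every library. Only 11, 9, 7 and 10 members reached 1 FPKM, and the median member was at 0.136, 0.116, 0.237 and 0.190 FPKM. Over the 4 libraries, 27 members had at most 10 fragments and 6 had at least 100. A count of 0 allows up to 3 fragments, which for a gene of 1 kb are worth 0.179, 0.147, 0.140 and 0.177 FPKM in the 4 libraries, so a lower level was not detectable at this depth.

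The members' summed level stood far below that of the replication-independent histones. Their FPKM summed to 34.1, 25.5, 29.9 and 38.1 in the 4 libraries. The 12 replication-independent histone genes in the table summed to 454, 412, 336 and 328 FPKM, which is 13.3, 16.2, 11.2 and 8.62 times as much. H3F3B, which encodes the replacement histone H3.3, was at 49.8, 41.5, 39.7 and 38.8 FPKM and alone exceeded the sum of all members in each library. H1F0, the linker histone of resting and differentiated cells, was at 167, 177, 56.6 and 85.1 FPKM. H2AFZ, the H2A.Z gene, was at 52.6, 45.9, 86.0 and 69.4 FPKM. How much of each histone message the library preparation could capture is not known, so these are levels in the libraries rather than in the cells.

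**Figure D1:**
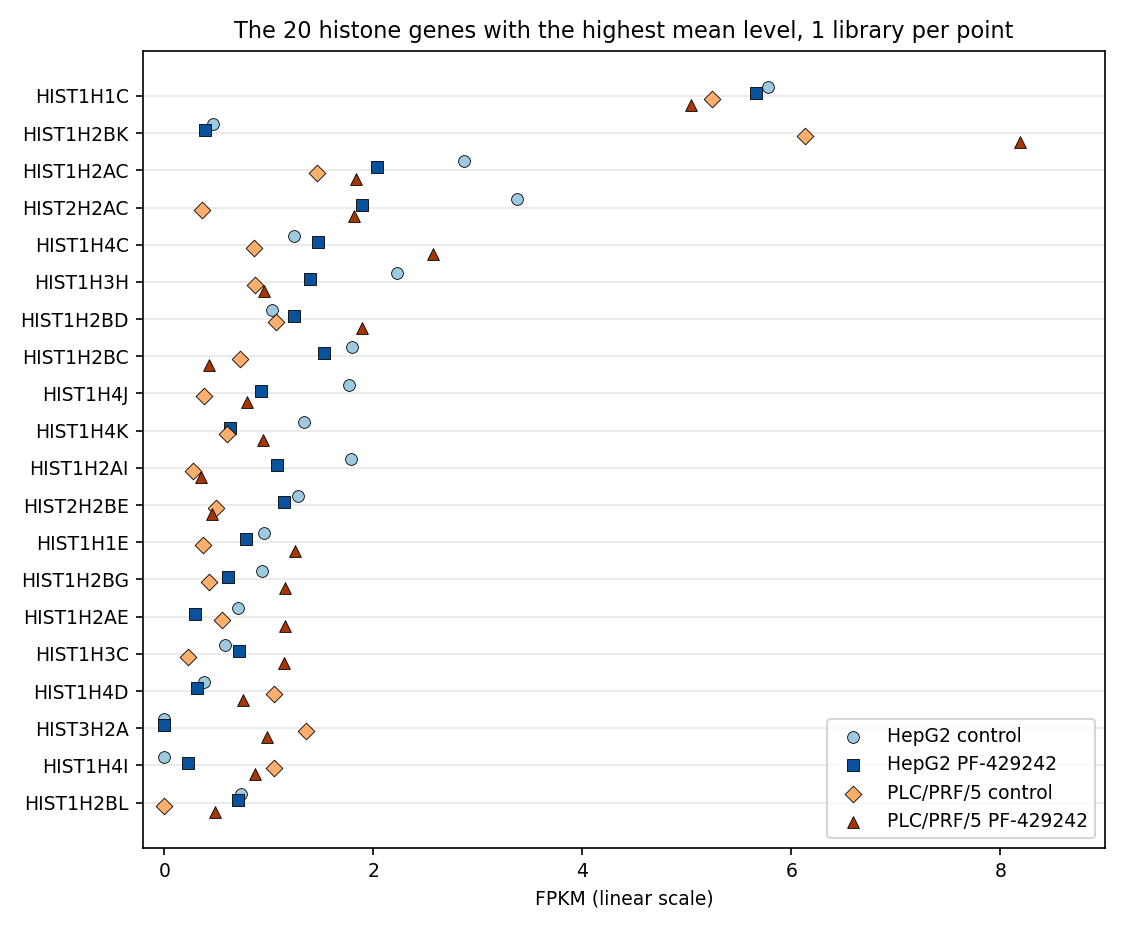
FPKM (linear axis) of the 20 histone genes with the highest mean level, ordered by that mean, with 1 point per library and no error bars since each group is 1 library. HIST1H1C lies between 5.04 and 5.78 FPKM in every library, HIST1H2BK is at 6.14 and 8.19 FPKM in PLC/PRF/5 and at most 0.471 FPKM in HepG2, and the other members shown stay at or below 3.37 FPKM.

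HIST1H1C, which encodes the linker histone H1.2, was the highest member overall. It is a single-exon gene at chr6:26055787-26056428 on the minus strand (GRCh38). Its level in HepG2 was 5.78 FPKM (62 fragments) without and 5.66 FPKM (74) with the inhibitor, and in PLC/PRF/5 it was 5.24 FPKM (72) and 5.04 FPKM (55). These 4 values lie close together, and the treated-to-control ratio was 0.981 in HepG2 (95% counting interval 0.690 to 1.40) and 0.962 in PLC/PRF/5 (0.665 to 1.39). The other H1 gene with more than a few fragments, HIST1H1E (H1.4), was at 0.952, 0.782, 0.372 and 1.25 FPKM. HIST1H1B and HIST1H1D had 2 fragments each, all from untreated PLC/PRF/5.

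Among the H2A genes, HIST1H2AC and HIST2H2AC led. HIST1H2AC was at 2.87, 2.03, 1.46 and 1.84 FPKM (80, 69, 52 and 52 fragments). HIST2H2AC was at 3.37, 1.89, 0.360 and 1.81 FPKM from only 22, 15, 3 and 12 fragments. Its PLC/PRF/5 control value stands below the other 3 libraries. HIST1H2AI was at 1.78 and 1.07 FPKM in HepG2 and at 0.279 and 0.351 FPKM in PLC/PRF/5. HIST2H2AB, the member whose fragments could not be recovered, was at 0.451 FPKM in the HepG2 control and at 0 in the other 3 libraries.

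H2B was the class with the most fragments, between 36.7% and 41.0% of the members' fragments in each library. HIST2H2BE was at 1.28, 1.14, 0.490 and 0.456 FPKM (47, 51, 23 and 17 fragments). HIST1H2BD was at 1.03, 1.24, 1.07 and 1.89 FPKM, and HIST1H2BC at 1.79, 1.53, 0.729 and 0.424 FPKM. HIST1H2BC and HIST2H2BE were thus higher in both HepG2 libraries than in both PLC/PRF/5 libraries. HIST1H2BN held 49, 51, 45 and 25 fragments, but its model of 5477 bases overlaps HIST1H2AK and HIST1H2AL, and its level stayed between 0.269 and 0.535 FPKM.

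HIST1H3H and HIST1H4C led their classes. HIST1H3H was at 2.22, 1.39, 0.869 and 0.952 FPKM (46, 35, 23 and 20 fragments). HIST1H3E, the member with its own stem-loop core, held 16, 12, 19 and 15 fragments at 0.220 to 0.357 FPKM. HIST1H4C was at 1.24, 1.47, 0.860 and 2.57 FPKM (9, 13, 8 and 19 fragments). HIST1H4J and HIST1H4K were at 1.76 and 1.34 FPKM in the HepG2 control. These genes share 79.6% and 100% of their 75-base windows with each other, so their fragments cannot be assigned between them with certainty. The same holds for HIST1H2AI, which shares 60.1% of its windows with HIST1H2AJ, and for HIST1H2BK, which shares 50.5% with H2BFS.

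The 8 members known to give polyadenylated transcripts outside S phase (HIST1H1C, HIST1H2AC, HIST1H2BC, HIST1H2BD, HIST1H2BJ, HIST1H2BK, HIST2H2BE and HIST1H4H) held 47.3%, 52.2%, 46.5% and 44.4% of the members' fragments. All 8 were above 0 in every library. The testis histones HIST1H2AA and HIST1H2BA held 2 fragments each from untreated PLC/PRF/5 and 0 elsewhere. HIST4H4, an H4 gene outside the member rule, was at 0.418, 0.477, 0.290 and 0.480 FPKM.

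After PF-429242 in HepG2, the members' fragments were lower in sum. The ratio of treated to control, corrected for library totals, was 0.780 (95% counting interval 0.687 to 0.885; counting intervals here are exact and cover counting error only). With totals over nuclear genes alone the ratio was 0.898 with an upper bound of 1.02, and the larger mitochondrial share of the treated library moved with this result. By class the ratio was 0.661 for H2A (0.505 to 0.864) and 0.616 for H3 (0.425 to 0.889), and on nuclear totals the H3 interval held 1 (0.489 to 1.02). The intervals for H1 (0.955, 0.692 to 1.32), H2B (0.870, 0.709 to 1.07) and H4 (0.719, 0.464 to 1.11) held 1. In bulk RNA, fewer cells making a message and less of it per cell cannot be told apart.

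Of 23 members with more than 3 fragments in a HepG2 library, 3 had a counting interval wholly below 1 and 0 wholly above. The 3 were HIST1H2AC, HIST1H3H and HIST1H4E. The share of all genes whose interval left out 1 was not computed, so these counts have no background to stand beside. HIST1H2AC went from 80 to 69 fragments, a ratio of 0.709 (0.506 to 0.990), and HIST1H3H from 46 to 35, a ratio of 0.625 (0.391 to 0.992). HIST1H4E, an H4 gene, went from 9 fragments to 1, a ratio of 0.0913 (0.00208 to 0.659). The upper bounds of HIST1H2AC and HIST1H3H lie just under 1, and with totals over nuclear genes alone only HIST1H4E stayed wholly below 1, while HIST1H4I (0 and 6 fragments) was wholly above. HIST1H4C (1.19, 0.469 to 3.15) and HIST1H2BD (1.21, 0.597 to 2.50) had ratios above 1 with intervals that held it.

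On the log2(FPKM + 1) scale, which understates changes of low genes, 11 members reached 1 FPKM in a HepG2 library. By 2-fold or more, 0 of these were higher and 0 lower, while 1.00% of the 12347 genes measured by the same filter were higher and 2.14% lower (1.49% and 1.76% with median-of-ratios scaling). The members' median log2 ratio was -0.35 and that of all genes -0.17. Below 0 were 9 of the 11 members. The share of all genes below 0 was not computed here or under the next filter, but their negative medians put most of them there. A gene that passes this filter only through the library where it is high has to differ, so the members with at least 20 fragments in the pair are given too: the median of these 13 was -0.14, that of all such genes -0.15, and 11 of the 13 were below 0. HIST2H2AC had the lowest of the log2 ratios at -0.60, from 3.37 to 1.89 FPKM, and its counting interval (0.270 to 1.13) held 1.

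After PF-429242 in PLC/PRF/5, the members' fragments were higher in sum. The ratio of treated to control was 1.15 (1.02 to 1.30), and 1.26 (1.11 to 1.43) with totals over nuclear genes alone. Every class had a ratio above 1, from 1.07 for H3 to 1.20 for H2B, and every class interval held 1 on the deposited scale. On nuclear totals the H2B interval (1.07 to 1.61) lay above 1. With fragments rescaled to the TPM scale, where each library's FPKM are made to sum to the same value, the ratio was 0.911, below 1. The members' summed level on that scale was 73.1 in the control and 73.7 in the treated library. On the TPM scale the median log2 ratio of all genes was -0.43. The side of 1 on which the PLC/PRF/5 ratio of summed fragments fell therefore depended on the scale.

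Of 32 members with more than 3 fragments in a PLC/PRF/5 library, 5 had a counting interval wholly above 1 and 1 wholly below. The share of all genes with such intervals was not computed for this line either. HIST1H2BG, an H2B gene, went from 14 to 30 fragments (0.427 to 1.15 FPKM), a ratio of 2.70 (1.39 to 5.51). HIST1H1E went from 6 to 16, a ratio of 3.36 (1.25 to 10.5), and HIST1H4C from 8 to 19, a ratio of 2.99 (1.25 to 7.90). HIST2H2AC went from 3 to 12 and HIST1H3C from 2 to 8, each with a ratio of 5.04, and their intervals reached down to 1.36 and 1.01. HIST1H2BJ went the other way, from 10 fragments to 1, a ratio of 0.126 (0.00290 to 0.885). These members code for proteins of all 5 classes, and none of them held more than 30 fragments in either library.

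HIST1H2BG held 44 fragments in the PLC/PRF/5 pair, and the other members named next, with similar or larger numbers, had ratios nearer 1. HIST1H2BK, the highest of them, went from 50 to 53 fragments (6.14 to 8.19 FPKM), a ratio of 1.33 (0.890 to 2.01). HIST1H2BD had a ratio of 1.76 (0.958 to 3.30) and HIST1H2AC of 1.26 (0.841 to 1.89). HIST1H2BN had a ratio of 0.700 (0.411 to 1.17), HIST3H2A of 0.727 (0.358 to 1.42) and HIST1H4I of 0.825 (0.437 to 1.52). All of these intervals held 1, except that of HIST1H2BD on nuclear totals, which lay above it.

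On the log2(FPKM + 1) scale, 13 members reached 1 FPKM in a PLC/PRF/5 library. HIST2H2AC was higher by 2-fold or more (log2 ratio 1.05) and 0 members were lower, beside 1.48% higher and 1.82% lower among 13144 genes (2.66% and 6.61% on the TPM scale). HIST2H2AC had 3 fragments in the control, and with a pseudocount of 5 it was no longer past 2-fold. The members' median log2 ratio was 0.48 and that of all genes -0.13. Above 0 were 9 of the 13, and the share of all genes above 0 was not computed. HIST2H2AC, HIST1H3C, HIST1H1E, HIST1H2BG, HIST1H2AE and HIST1H4C reached 1 FPKM only in the treated library. HIST1H4D, HIST1H4I and HIST3H2A reached it only in the control. Members passing the filter in this way had to differ, so the count and the median partly reflect the filter. Among the 14 members with at least 20 fragments in the pair, the median was 0.03, with 7 above and 7 below 0. The median of all such genes was -0.10.

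**Figure D2:**
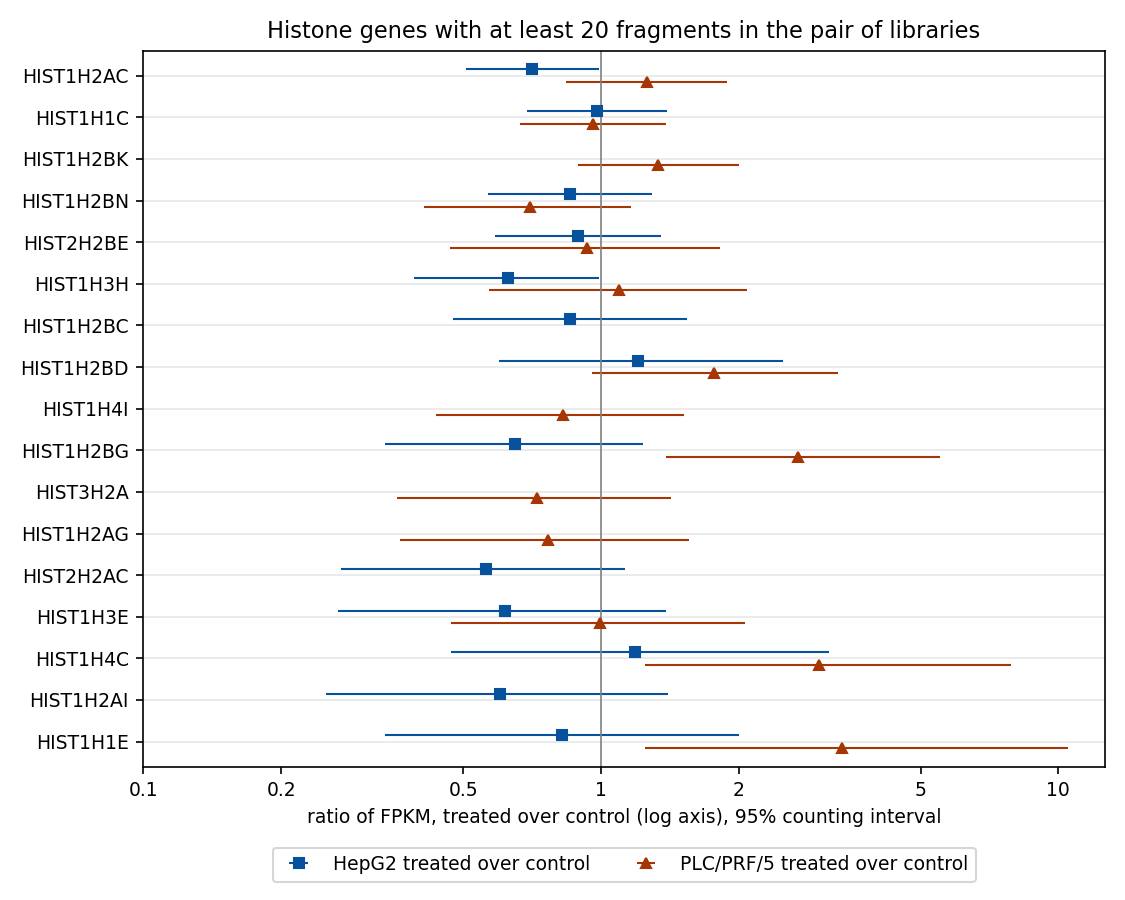
Ratio of FPKM, treated over control (log axis), for histone genes with at least 20 fragments in the pair of libraries; squares are HepG2, triangles PLC/PRF/5, and bars are 95% intervals of counting error only. In HepG2 the bars of HIST1H2AC and HIST1H3H end just under 1, while in PLC/PRF/5 those of HIST1H2BG, HIST1H4C and HIST1H1E lie above 1.

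The sum split by kind of transcript model. In PLC/PRF/5, the 8 members whose stem-loop transcript ends near the stem-loop had 33 fragments in the control and 54 after treatment, a ratio of 2.06 (1.31 to 3.28). HIST1H2BD, which is also known for polyadenylated transcripts, held 20 and 28 of these, and without it the other 7 had 13 and 26, a ratio of 2.52 (1.25 to 5.34). The 20 members whose model runs past the stem-loop had 310 and 245 fragments, a ratio of 0.995 (0.838 to 1.18). The 24 coding-only models gave 1.13 (0.901 to 1.42). The 5 models with untranslated bases but no stem-loop match had 30 and 44 fragments. Their ratio of 1.85 (1.14 to 3.04) also lay above 1. In HepG2 the ratio of the models that end near the stem-loop was 0.791 (0.528 to 1.18), and that of the models that run past it was 0.762 (0.648 to 0.896). The coding-only models had 0.793 there (0.606 to 1.04), and those without a match 0.929 (0.509 to 1.70). The 8 genes known for polyadenylated transcripts had ratios of 0.859 in HepG2 (0.717 to 1.03) and 1.10 in PLC/PRF/5 (0.912 to 1.32). For the other members these were 0.708 (0.591 to 0.848) and 1.19 (1.01 to 1.41). The difference between kinds of model was not tested.

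Of the RNAs that carry no poly(A) tail, RN7SL1, RN7SL2 and SNORD3A had ratios on the same side of 1 as the members' sum in both lines. RN7SL1, an RNA of the signal recognition particle, was at 5.80 and 3.12 FPKM in control and treated HepG2 and at 4.22 and 7.09 FPKM in PLC/PRF/5. The ratio of RN7SL1 was 0.538 in HepG2 (0.285 to 0.993) and 1.68 in PLC/PRF/5, where the interval held 1 (0.991 to 2.88). RN7SL2, its near copy, was at 6.38, 3.11, 2.34 and 6.87 FPKM in the same order. The ratios of RN7SL2 were 0.488 in HepG2 (0.261 to 0.887) and 2.94 in PLC/PRF/5 (1.56 to 5.79). SNORD3A, the U3 small nucleolar RNA, was at 0.342, 0.211, 1.20 and 2.78 FPKM. In HepG2 it had only 4 and 3 fragments, a ratio of 0.616 with an interval that held 1 (0.0903 to 3.64). In PLC/PRF/5 its ratio was 2.31 (1.26 to 4.36). RNU4-2, a spliceosomal RNA, went the other way in both lines, with 0 and 1 fragments in HepG2 and 4 and 3 in PLC/PRF/5. Of the 10 such RNAs listed, 5 were in the table, and the last, TERC, had 1 fragment in all. Their part in the histone result was not tested.

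**Figure D3:**
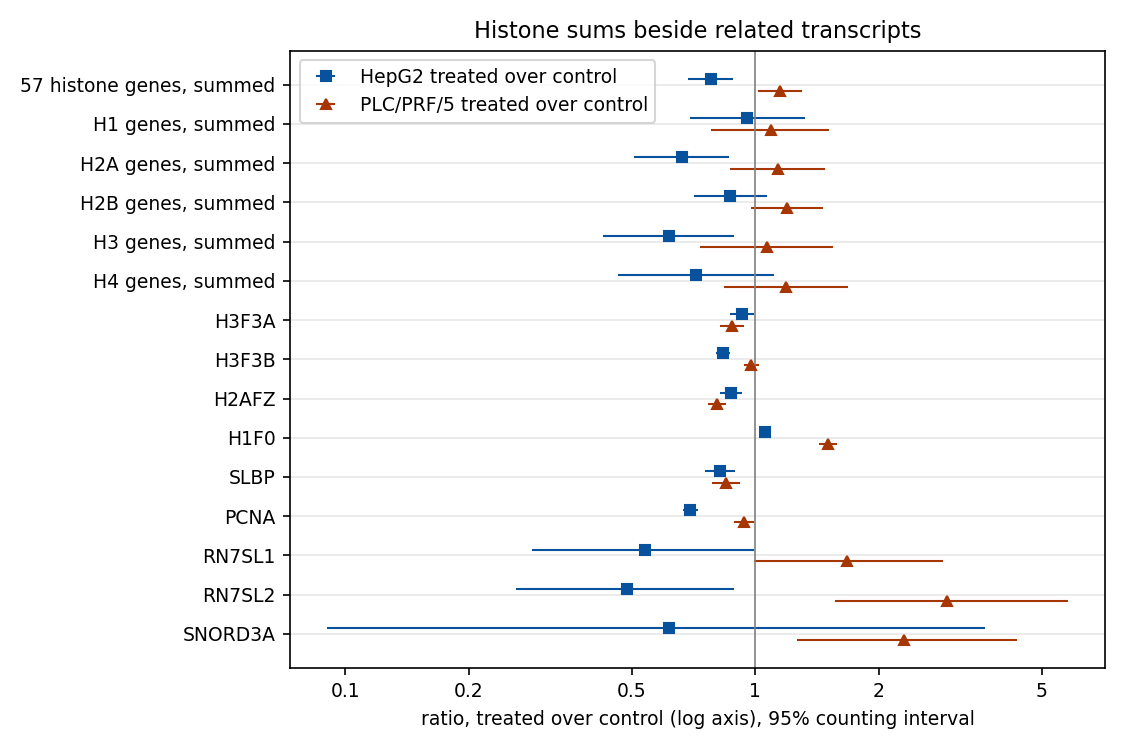
Ratio, treated over control (log axis), with 95% counting intervals, for the summed fragments of 57 histone genes and of each class, beside single related genes; squares are HepG2 and triangles PLC/PRF/5. The sum of all members is at 0.780 in HepG2 and 1.15 in PLC/PRF/5, SLBP is below 1 in both lines, and RN7SL2 is at 0.488 and 2.94.

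The shared effect of treatment in both lines was fitted with limma over 12838 genes, with the cell line as a block and 1 residual degree of freedom. The lines serve as the replicates. Of 10 members tested, 0 passed an adjusted p of 0.05, as did 0% of all genes. At an unadjusted p under 0.05 there were 0 members, against 19.4% of all genes. With median-of-ratios scaling there was 1 of 12 members, against 10.6% of genes, and with quantile normalization 2 of 11, against 10.3%. HIST1H4C came nearest, with an estimate of 0.54 on the log2 scale (SE 0.24, limma adjusted p = 0.305). For HIST1H1C the estimate was -0.04 (SE 0.09, adjusted p = 0.830). The largest standard error was that of HIST2H2AC (0.43), which had log2 ratios of -0.60 in HepG2 and 1.05 in PLC/PRF/5.

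The genes that make and process histone messages stayed near the median of all genes. SLBP was at 34.4 and 28.3 FPKM in control and treated HepG2 and at 37.3 and 31.7 FPKM in PLC/PRF/5. NPAT was at 3.95, 3.33, 3.74 and 3.28 FPKM. LSM11, a protein of the U7 snRNP, was at 3.24, 2.33, 3.47 and 2.21 FPKM, the lowest limma adjusted p of its list (0.204). Of the 21 genes for transcription, processing and decay of histone mRNA, 20 had a log2 ratio below 0 in HepG2 (median -0.16) and 17 in PLC/PRF/5 (median -0.15). These medians lie close to those of all genes, -0.17 and -0.13. Most of all genes thus lay below 0 too. Their share was not computed beside the counts of this list and the lists that follow. None of the 21 was past 2-fold in either line.

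S-phase genes stood lower than that. All 24 measured in HepG2 and 24 of 25 in PLC/PRF/5 had a log2 ratio below 0, with medians of -0.37 and -0.28 and none past 2-fold. TK1, thymidine kinase, was at 26.0 and 14.9 FPKM in HepG2 and at 25.4 and 18.8 FPKM in PLC/PRF/5. CDT1, a replication licensing factor, was the exception in PLC/PRF/5, at 10.6 and 13.1 FPKM. In the limma fit 0 of the 25 passed an adjusted p of 0.05, with a smallest value of 0.193. Of the 25, 20 had an unadjusted p under 0.05 in that fit, against 19.4% of all genes. The S-phase list and the histone sum thus had ratios on opposite sides of 1 in PLC/PRF/5 on the deposited scale.

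Histone chaperones and replication-independent histones had medians near that of all genes. The 15 chaperones had medians of -0.23 in HepG2 and -0.15 in PLC/PRF/5, with 15 and 13 of them below 0. ASF1B, a chaperone of new H3 and H4, was at 9.44, 6.37, 10.8 and 7.97 FPKM. The 11 replication-independent histones measured had medians of -0.19 and -0.18, with 10 and 8 below 0. H1F0 was the one above 0 in HepG2 and had a ratio of 1.50 in PLC/PRF/5 (1.43 to 1.58). Over these 4 lists, 0 genes passed an adjusted p of 0.05 in the limma fit. An unadjusted p under 0.05 was found for 4 of 11 replication-independent histones, 5 of 21 processing genes and 6 of 15 chaperones. The share of all genes in that fit was 19.4%.

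The control libraries of the lines were compared next. Of 33 members with more than 3 fragments in a control, 9 had an interval wholly above 1 for HepG2 over PLC/PRF/5 and 4 wholly below. For these counts too, the share of all genes was not computed. On the log2(FPKM + 1) scale, 15 members were measured. HIST1H2AI, HIST1H4J and HIST2H2AC were higher in HepG2 by 2-fold or more and HIST1H2BK, HIST1H4I and HIST3H2A lower, beside 10.0% higher and 13.1% lower among 13861 genes. Each of these named members reached 1 FPKM only in the control where it was higher, so by the filter it had to differ. The median log2 ratio, under the same filter, was 0.55 for the members and -0.06 for all genes. Among the 14 members with at least 20 fragments in the pair it was 0.13, and among all such genes -0.06. The sum of fragments had a ratio of 1.21 (1.07 to 1.36). Without the 5 members with most fragments it was 0.885, with an interval that held 1 (0.744 to 1.05). Each of those 5 had a ratio above 1 itself, so leaving them out lowered the ratio of the sum.

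The 4 members with intervals wholly below 1 were HIST3H2A, HIST1H2AG, HIST1H4I and HIST1H2BK, and they lay in 2 short stretches of the genome. Members were grouped into runs separated by more than 500000 bases, which gave 2 runs on chromosome 1 and 3 on chromosome 6. One short run, chr6:27125897-27147515 (21.6 kb), holds HIST1H2BJ, HIST1H2AG, HIST1H4I, HIST1H2BK and HIST1H2AH. It held 6 fragments in the HepG2 control and 13 in treated HepG2, against 114 and 87 in PLC/PRF/5. The HepG2 control was thus 14.9-fold lower than the PLC/PRF/5 control (ratio 0.0673, 0.0242 to 0.151). Both HepG2 libraries were low and both PLC/PRF/5 libraries high, at 0.359 and 0.639 against 5.33 and 5.12 fragments per 1000000.

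Within this run, 3 of the 5 genes showed the difference separately. HIST1H2BK, an H2B gene at chr6:27146418-27146798 on the minus strand, was at 0.471 and 0.387 FPKM in HepG2 (3 fragments each) and at 6.14 and 8.19 FPKM in PLC/PRF/5. HIST1H4I had 0 and 6 fragments in HepG2 and 29 and 19 in PLC/PRF/5, at least 7.56-fold lower in the HepG2 control against a floor of 3 fragments in that library. HIST1H2AG had 1 and 3 fragments against 23 and 14, a ratio of 0.0556 between the controls (0.00135 to 0.342). HIST1H2BJ had 2 and 1 against 10 and 1, with an interval between the controls that held 1 (0.0273 to 1.20), and HIST1H2AH had 2 fragments in the PLC/PRF/5 control alone. Their classes differ (H2A, H2B and H4), and so do the promoters of HIST1H2BK, with the octamer, and HIST1H4I, without it.

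A second run, at chr1:228424845-228460470, holds HIST3H3, HIST3H2A and HIST3H2BB. It had 0 fragments in both HepG2 libraries and 30 and 17 in control and treated PLC/PRF/5. HIST3H2A, an H2A gene, held most of these (26 and 15 fragments, 1.36 and 0.987 FPKM) and was at least 6.78-fold lower in the HepG2 control, with the same floor. Of the neighbours within 50 kb, RNF187 was at 16.5 and 18.9 FPKM in the HepG2 and PLC/PRF/5 controls and TRIM11 at 2.04 and 2.81. The HIST1H2BJ to HIST1H2AH run had only 1 non-histone neighbour in the table within that distance, AL021807.1, with at most 2 fragments in any library.

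The other runs went the other way. The chromosome 1 run from HIST2H2BF to HIST2H2AB, at chr1:149782689-149887916, had 76 and 32 fragments in the HepG2 and PLC/PRF/5 controls, a ratio of 3.04 (1.99 to 4.75). HIST2H2BE had a ratio of 2.61 there (1.56 to 4.51) and HIST2H2AC of 9.38 (2.82 to 48.9). The run from HIST1H2BL to HIST1H2BO, at chr6:27807444-27893843, had a ratio of 1.89 (1.45 to 2.48), with HIST1H3H at 2.56 (1.52 to 4.42) and HIST1H2AI at 6.39 (1.81 to 34.5). HIST1H2BL in that run had 6 fragments in the HepG2 control and 0 in the PLC/PRF/5 control. The large run from HIST1H2AA to HIST1H4H, with 28 members, had a ratio of 1.36 (1.15 to 1.61). Without the 2 runs that were low in HepG2, the ratio of all remaining members was 1.62, against 1.21 with them. These runs were left out because they were low in HepG2, so the ratio had to rise.

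**Figure D4:**
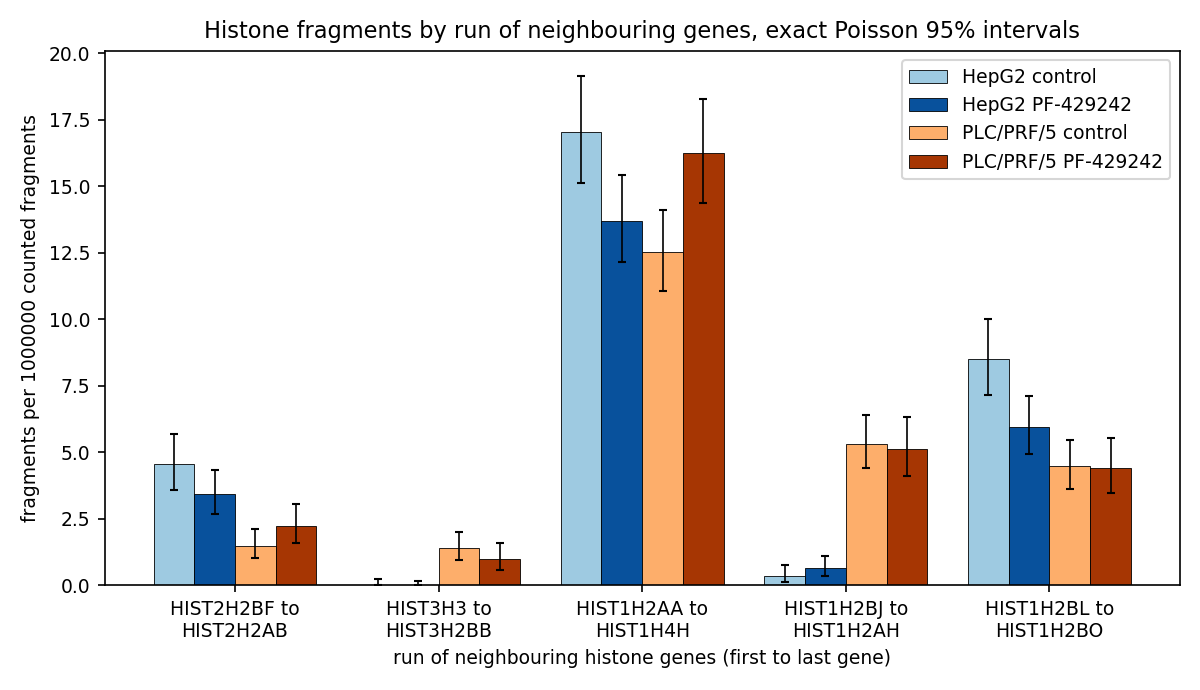
Histone fragments per 1000000 counted fragments (linear axis from 0) in each run of neighbouring histone genes, with 1 bar per library and exact Poisson 95% intervals of counting error. Runs are named by their first and last gene. The HIST1H2BJ to HIST1H2AH run is at 0.359 and 0.639 in HepG2 and at 5.33 and 5.12 in PLC/PRF/5, the HIST3H3 to HIST3H2BB run is at 0 in both HepG2 libraries, and the other 3 runs are higher in the HepG2 control than in the PLC/PRF/5 control.

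Within each line, the order of the runs by fragments per 1000000 was the same in control and treated libraries. The HIST1H2BJ to HIST1H2AH run had a treated-to-control ratio of 0.961 in PLC/PRF/5 (0.719 to 1.28) and 1.78 in HepG2 (0.631 to 5.71), the last from 6 and 13 fragments. The large HIST1H2AA to HIST1H4H run had ratios of 0.804 in HepG2 (0.680 to 0.952) and 1.30 in PLC/PRF/5 (1.09 to 1.54). The run from HIST1H2BL to HIST1H2BO had ratios of 0.700 (0.545 to 0.899) and 0.984 (0.718 to 1.34). The large run held between 49.6% and 57.8% of the members' fragments in each library.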

How the data were processed

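RNA was measured in 4 libraries, 1 in each group, as labelled. The deposited values are FPKM per Ensembl gene. Per the submitters' processing notes, the authors aligned reads with TopHat2 to GRCh38. Neither the labels nor the notes name the counting program or the annotation. Whole fragments were recovered with GENCODE 29 exon lengths: values of 24452 of 32354 genes (75.6%) were whole within 0.001 fragments, 7412 more were solved from ratios between libraries, and 490 were unsolved. Near-identical genes and overlapping genes may share fragments, and how the authors assigned these is not known.

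Pairs of libraries were compared by the ratio of FPKM with 95% Clopper-Pearson intervals of the fragments. The libraries have no molecular identifiers, so fragments may not be independent molecules, and the intervals cover counting error only. The log2 ratio of (FPKM + 1) was used where a gene reached 1 FPKM in one or both libraries, and a change of 2-fold was counted. For the shared effect, limma 3.58.1 (R 4.3.3; trend, Benjamini-Hochberg) was run on genes reaching 1 FPKM in 2 or more libraries. The lines are treated as replicates of the treatment, so its p-values measure the spread of the response between these lines.

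The members, gene lists and naming rule were chosen with earlier results of these data known. Named were the 20 members with the highest mean FPKM, the 5 highest and 5 lowest log2 ratios per comparison among members with at least 20 fragments in the pair, fixed related genes, and up to 4 genes per related list. Members whose counting interval left out 1, the runs of neighbours and their neighbouring genes were named after their values were seen. Alternatives varied the pseudocount, filter, fold threshold, scaling and limma settings, and the members in the sum. Nuclear totals for sums and intervals, and leaving members out of the sum, were added after the values were seen. One neighbouring gene is not reported here.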

Additional observations from a re-analysis of the deposited data

Results flagged for a closer look

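The summed fragments of the histone members had a treated-to-control ratio of 0.780 in HepG2 and 1.15 in PLC/PRF/5. They are given here because, on the deposited scale, the one library pair moved down and the other up under the same treatment. On nuclear totals the HepG2 interval held 1 (0.898, 0.791 to 1.02). On the TPM scale the ratio of summed fragments was below 1 in both lines. With 1 library per group, this difference between the lines was not tested, and both counting intervals leave out sources of error other than counting.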

How the results depend on the processing

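With 1 library per group and few fragments per member, only large differences of single members exceed counting error. No library could be left out of a pair. The labels give no replicate numbers, so the cell line was the only pairing. Without a replicate block for the cell line, limma called 0 members, as with it. It also called 0 under every other limma setting tried, although 4987 of 16340 genes passed on the TPM scale. Median-of-ratios, quantile and nuclear totals brought the median of all genes near 0, and the TPM scale put it at -0.48 in HepG2 and -0.43 in PLC/PRF/5.

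The HepG2 sum ratio was 0.898 on nuclear totals, 0.905 on median-of-ratios and 0.619 on the TPM scale. The PLC/PRF/5 ratio of summed fragments turned to 0.911 on the TPM scale, though the summed level did not. The ratio between controls was 1.40 on the TPM scale. Without the 5 members with most fragments it was 0.885, with an interval that held 1 (0.744 to 1.05). Leaving out the runs low in HepG2 had to raise the ratio between controls, and it was then 1.62. Summed FPKM on the TPM scale was 96.8 (HepG2 control), 57.4 (treated HepG2), 73.1 (PLC/PRF/5 control) and 73.7 (treated PLC/PRF/5), and on nuclear totals 40.9, 35.2, 38.1 and 53.0.

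In HepG2, 1 of 11 members was lower at 1.5-fold, beside 5.54% of all genes, and 2 of 26 on the TPM scale, beside 7.74%. Percentages in brackets below are the share of all genes in the same direction and setting. Members that reached 1 FPKM only in the library where they were higher had to differ. Part of the counts made with that filter may therefore come from it. In PLC/PRF/5, members higher numbered 5 of 13 with a pseudocount of 0.1 (3.40%) or at 1.5-fold (4.25%). They numbered 3 of 24 on the TPM scale (2.66%) and 3 of 16 on nuclear totals (2.47%). With median-of-ratios (1.80%) or quantile scaling (1.77%) they numbered 2 of 11. They numbered 0 with a pseudocount of 5 (0.137%), at least 5 FPKM (0.566%), at least 20 fragments (0.248%) or at 4-fold (0.0228%). Between controls, members higher in HepG2 numbered 7 of 15 with a pseudocount of 0.1 (15.2%) or at 1.5-fold (19.8%). They numbered 10 of 31 on the TPM scale (17.3%) and 1 of 14 with at least 20 fragments (7.14%). With a pseudocount of 5 (3.10%), at least 5 FPKM (10.6%) or at 4-fold (1.67%) they numbered 0. Members lower numbered 5 of 31 on the TPM scale (15.8%). They numbered 1 of 15 with a pseudocount of 5 (3.68%) or at 4-fold (3.39%), and 1 of 2 with at least 5 FPKM (11.6%). The members' median between controls was -1.08 with at least 5 FPKM.

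On the TPM scale the median of replication-independent histones was -0.53 in HepG2. Processing genes had -0.49 in HepG2 and -0.47 in PLC/PRF/5, chaperones -0.56 and -0.48, and S-phase genes -0.71 and -0.61. With median-of-ratios, quantile and nuclear scaling, processing genes in HepG2 had medians of 0.022, 0.028 and 0.013. Chaperones had -0.019, -0.017 and -0.030 in HepG2 and -0.029, 0.014 and -0.022 in PLC/PRF/5. S-phase genes kept medians below 0, at -0.17, -0.17 and -0.18 in HepG2 and -0.16, -0.14 and -0.15 in PLC/PRF/5. In HepG2, 1 S-phase gene was lower at 1.5-fold, beside 5.54% of all genes, and 1 on the TPM scale, beside 7.74%. The cause of these shifts beyond the scale itself was not tested.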
